A study of Drosophila melanogaster with 2 samples.

Results

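Ecdysone synthesis and response genes were examined in Drosophila melanogaster larvae that carry a GFP-tagged transgene of the splicing factor dASF/SF2 under GMR. The list holds 39 genes, fixed by name with earlier results of these data known; no value enters the rule. A probe was assigned to a gene where the platform annotation gave it a single symbol, after older symbols were updated. By that rule 33 of the 39 genes had a probe, with 41 probes in all, out of 15744 probes in the table. Values on both arrays were present for 27 of the genes, out of 9266 genes measured on both. No probe carried the symbol of 6 members (nvd, Eip74EF, Eip75B, Eip63F-1, Eig71Eb and Eig71Ec), so these were not analysed here. The probes of spo and Hr4 were blank on both arrays, and tor, Eip93F, Eig71Ei and Eig71Ek had a value on array 2 alone. Blank cells were about as common among member probes as elsewhere: 80.5% of member probes and 74.1% of all probes with 1 symbol had both values.

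The steroid hormone ecdysone is made from dietary sterols in the prothoracic gland by a chain of enzymes, mostly cytochrome P450s of the Halloween group. Its release is set off by the brain neuropeptide Ptth, and peripheral tissues convert it to its active form. The active hormone binds a heterodimer of the nuclear receptors EcR and usp. The receptor switches on a small set of early regulatory genes, which in turn switch on later nuclear receptors and tissue-specific late genes. Pulses of the hormone time the moults and the onset of metamorphosis.

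Each of the 2 arrays set polyA RNA of larvae from the cross GMR X GFP-dASF/SF2 against polyA RNA of larvae from the cross GMR X GFP-NLS, the control, whose GFP carries a nuclear localisation signal. Both crosses thus share GMR, an enhancer active in the developing eye, and a GFP transgene. The labels give no larval age or stage, no sex, no number of pooled animals and no separate extracts for the 2 arrays. The p-values therefore rest on how far the arrays differ, which can be purely technical. For each gene, limma joins its own spread, with 1 residual degree of freedom, to a spread pooled over all genes. The pooled spread weighs more, with 5.09 degrees of freedom. Array 1 carried the dASF/SF2 RNA in Cy5 and array 2 carried it in Cy3. The deposited values are log ratios of the channels, with a base and a numerator that no source used here names. They were read as Cy5 over Cy3, the sign of array 2 was turned, and the median of each array was subtracted. A value above 0 then stands for a higher level in dASF/SF2 larvae under this reading and for a lower level if the ratio is Cy3 over Cy5, so results name a positive or a negative side and no direction. The probe of SF2, the gene of dASF/SF2, had -0.031 on array 1 and -0.128 on array 2, and whether it detects the transgene is not known here. In RNA from larvae, fewer cells of a type and less RNA per cell cannot be told apart. A table of ratios gives no levels, so the presence of each tissue could not be checked by its markers.

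No member of the list passed the test between dASF/SF2 and control larvae. The limma test with Benjamini-Hochberg adjustment over all genes called 0 of the 27 members and 0.0% of the 9266 genes, and the lowest adjusted p of a member was 0.587, for EcR. At an unadjusted limma p under 0.05, 2 members passed, EcR and Eig71Ee, both on the positive side, where 4.72% of all genes passed on that side. On the negative side 0 members did, against 2.18% of all genes. The 7.41% of members on either side is near the 6.90% of all genes.

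On sides alone, 11 of the 27 members (40.7%) were positive on both arrays, beside 25.4% of all genes. Another 4 (14.8%) were negative on both, beside 23.5% of all genes. The remaining 12 lay on opposite sides, beside 51.1% of all genes, and 8 of them were positive on array 1 and negative on array 2. The members' median was 0.0765, with 0.123 on array 1 and 0.0575 on array 2, and the median of all genes was 0.004. Means of the 27 members ran from -0.242 (Eig71Ea) to 0.38 (EcR), and 12 lay within 0.1 of 0. Regardless of sign, the median size of the mean was 0.103 for members and 0.0735 for all genes. In size, regardless of sign, the mean exceeded the SD of the 2 arrays for 13 members. The share of all genes was not counted for this rule or for the limit of 0.1, so neither count sets the members apart. Member probes measured on both arrays were spread over 18 of the 24 blocks of the probe order.

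**Figure D1:**
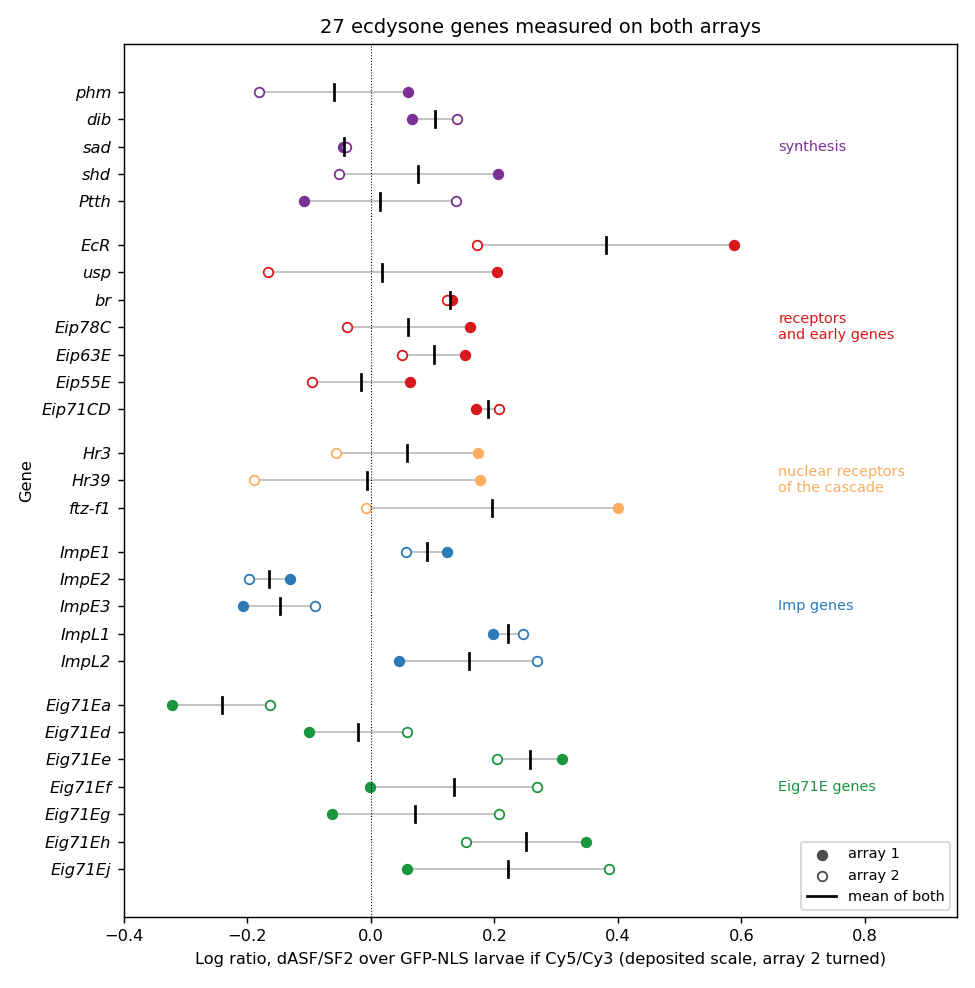
Log ratios of the 27 ecdysone genes measured on both arrays, by role (x axis, deposited log scale, array 2 turned); filled points are array 1, open points array 2 and bars their mean. EcR has the highest mean, 0.38, and Eig71Ea the lowest, -0.242; the points of 12 genes fall on opposite sides of 0.

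**Figure D2:**
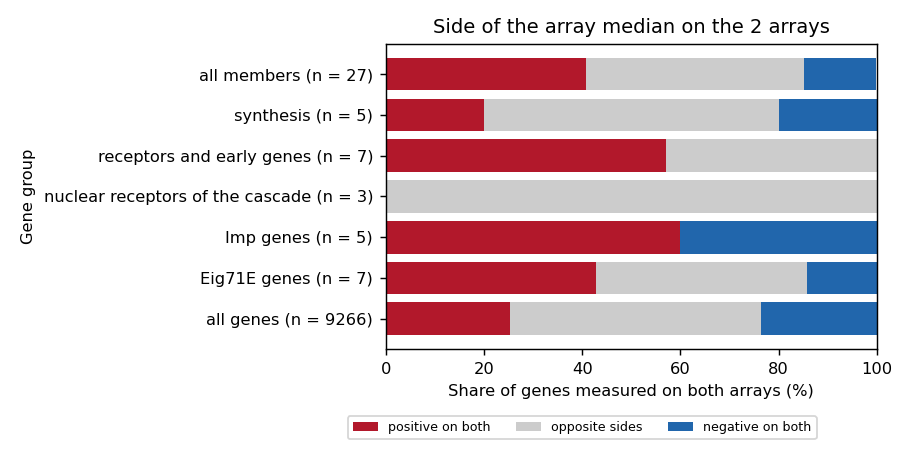
Share of genes (x axis, percent) on the positive side, on opposite sides or on the negative side of the array median on the 2 arrays, for each role and for all genes. Of the 27 members 40.7% are positive on both arrays, against 25.4% of 9266 genes; all 3 measured nuclear receptors of the cascade lie on opposite sides.

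Of the genes of hormone synthesis, 5 of 8 were measured on both arrays, and their means stayed between -0.0605 and 0.103. dib, which encodes a Halloween hydroxylase, had 0.066 on array 1 and 0.14 on array 2 and was the only one of the 5 on the positive side of both. sad, another hydroxylase of the chain, had -0.045 and -0.041 and lay just below the median on both. The other 3 lay on opposite sides. phm (phtm in the current annotation), a further Halloween hydroxylase, had 0.06 and -0.181. shd, the enzyme that makes the active hormone in peripheral tissues, had 0.205 on array 1 and -0.052 on array 2. Ptth had -0.108 and 0.138, the reverse order of sides. Its receptor gene tor, a receptor tyrosine kinase also known from embryonic patterning, was measured on array 2 alone, at -0.153. The median of the 5 genes, 0.015, was close to that of all genes.

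Of the receptor genes, EcR was on the positive side of both arrays and usp was not, and the difference between the 2 genes was not tested. EcR had 0.588 on array 1 and 0.172 on array 2, at the 98.1st and 86.5th percentiles of all genes on the arrays. The mean of 0.38 ± 0.294 (SD, n = 2) was at the 98.0th percentile and had a moderated 95% interval from 0.0684 to 0.692. Read as a log2 ratio it is a 1.30-fold difference, and read as log10 a 2.40-fold one. Both arrays put EcR on the same side, and array 1 gave the larger value. usp, the gene of the partner receptor, had 0.204 on array 1 and -0.167 on array 2, with a mean of 0.0185 ± 0.262 (SD, n = 2). The arrays thus placed usp on opposite sides.

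Among the early genes, br and Eip71CD were positive on both arrays with little spread. br, a zinc finger transcription factor gene with several protein isoforms, averaged 0.128 ± 0.00651 (SD, n = 2) over its 5 probes. That mean joins probes that differed. The first, the fourth and the fifth probe in table order had 0.285, 0.375 and 0.191 on array 1, and 0.179, 0.255 and 0.183 on array 2, all 3 positive on both, as 26.1% of all probes were. The second probe had -0.074 and -0.016, and the third -0.116 and 0.014. The highest br probe averaged 0.315, with an interval from 0.0663 to 0.564, and the lowest -0.051. The probe sequences were not used here, so which br isoforms each one detects is unknown, and the difference between the probes was not tested.

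**Figure D3:**
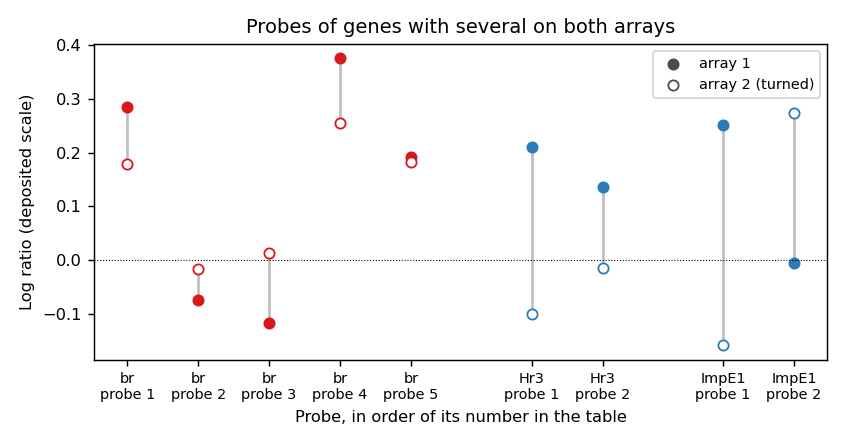
Log ratios (y axis, deposited scale, array 2 turned) of the probes of the 3 genes with several probes on both arrays, with filled points for array 1, open points for array 2, red for br and blue for Hr3 and ImpE1. In br 3 probes are positive on both arrays and 2 lie near or below 0; the ImpE1 probes are positive on different arrays.

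Eip71CD (MsrA in the current annotation), which encodes a methionine sulfoxide reductase, had 0.17 on array 1 and 0.207 on array 2. A second Eip71CD probe was measured on array 2 alone and had 0.199 there, close to the first. Eip63E, a cyclin-dependent kinase gene, was also positive on both arrays, at 0.153 and 0.05. Eip78C, an early nuclear receptor gene, had 0.16 and -0.039. Eip55E (Cth in the current annotation), which encodes a cystathionine gamma-lyase, had 0.063 and -0.095. All 7 measured receptor and early genes were thus positive on array 1, beside 50.3% of all genes, and 4 of the 7 were positive on array 2 as well, near the 51.3% of all genes there. Taken by array, the medians of the 7 were 0.16 on array 1 and 0.05 on array 2. Eip93F, a transcription factor gene that acts in the death of larval tissues at metamorphosis, had -0.227 on array 2 alone.

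The nuclear receptor genes further down the cascade lay on opposite sides of the 2 arrays. ftz-f1, the competence factor of the prepupal stage, had 0.40 on array 1 and -0.008 on array 2. Hr3, an activator of ftz-f1, had 0.173 and -0.0565 as the mean of its 2 probes, and each probe showed the same sides. Hr39, a relative of ftz-f1, had 0.176 and -0.19, almost equal in size. All 3 were positive on array 1 and negative on array 2 after turning, as were 24.8% of all genes, which means that their deposited values were positive on both arrays. Their means, 0.196 ± 0.288 for ftz-f1, 0.0585 ± 0.163 for Hr3 and -0.007 ± 0.259 for Hr39 (SD, n = 2 each), were smaller than the SD of the arrays.

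**Figure D4:**
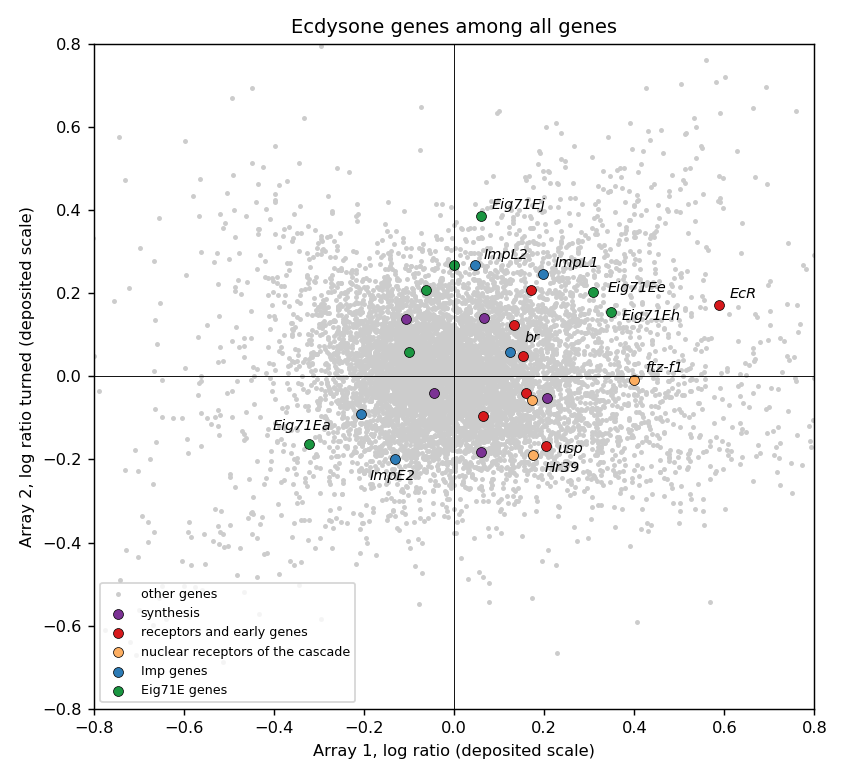
Log ratio on array 1 (x axis) against the turned log ratio on array 2 (y axis), both on the deposited scale, for all genes (grey) and the 27 ecdysone genes, coloured by role; 123 genes lie beyond the axis limits of 0.8. EcR stands at 0.588 and 0.172, and usp and Hr39 lie in the lower right, positive on array 1 and negative on array 2.

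The Imp genes encode secreted or membrane-associated proteins first found as hormone-inducible genes of imaginal discs, early (E) or late (L). All 5 were on the same side on both arrays, beside 48.9% of all genes. The late gene ImpL1 had 0.198 on array 1 and 0.246 on array 2, with a mean of 0.222 ± 0.0339 (SD, n = 2). ImpL2, which encodes a secreted binder of insulin-like peptides, had 0.046 and 0.269. ImpE1 had 0.123 and 0.0575 as the mean of 2 probes. Those probes disagreed, with 0.252 and -0.158 for the first and -0.006 and 0.273 for the second, so the shared side of ImpE1 rests on averaging them. The other early genes were on the negative side of both arrays. ImpE2 had -0.131 and -0.198, and ImpE3 had -0.207 and -0.09. ImpE2 lies beside the positive-side member Eip63E on chromosome arm 3L. On base 10, ImpL1 and Eig71Ee were the 2 members at least 1.5-fold from the median on the same side of both arrays, as 6.76% of all genes were, and on base 2 no member was, beside 0.194% of all genes. None of the 5 Imp genes passed the test, with adjusted p from limma of at least 0.752, and the difference between early and late Imp genes was not tested.

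The Eig71E genes are late ecdysone targets of the salivary gland that lie in a cluster on chromosome arm 3L and encode small secreted proteins. Of the 11 listed, 7 were measured on both arrays. Of these 7, 3 were positive on both (42.9%, beside 25.4% of all genes) and 1 was negative on both (14.3%, beside 23.5%). Eig71Ee, whose mucin-like product is also found in hemolymph clots, had 0.309 on array 1 and 0.204 on array 2. The 2 values average 0.257 ± 0.0742 (SD, n = 2), a 1.19-fold difference if the scale is log2 or 1.81-fold if it is log10, and the adjusted p from limma was 0.684. Eig71Eh had 0.348 and 0.154, and Eig71Ej had 0.059 and 0.385. Eig71Ea, at one end of the cluster, was the only negative one, at -0.322 and -0.163. Its mean of -0.242 ± 0.112 (SD, n = 2) had a moderated 95% interval from -0.49 to 0.00467.

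The remaining genes of the cluster measured on both arrays lay on opposite sides, 42.9% of the 7, beside 51.1% of all genes. Eig71Ed had -0.101 and 0.058, Eig71Ef -0.001 and 0.269, and Eig71Eg -0.063 and 0.207. On array 2 alone, Eig71Ei had 0.095. Eig71Ek, at the other end of the cluster from Eig71Ea, had -0.426 there, at the 3.64th percentile of 2582 probes measured on array 2 alone, and no value of the swapped dyes exists for it. The measured genes between the ends, from Eig71Ed to Eig71Ej, were all positive on array 2, as 51.3% of all genes were. Both end genes were negative on it. Array 1 did not show this order, since Eig71Ed, Eig71Ef and Eig71Eg were negative there and Eig71Ek had no value. Related sequences within the cluster may share signal between probes, which could not be checked without probe sequences.

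**Figure D5:**
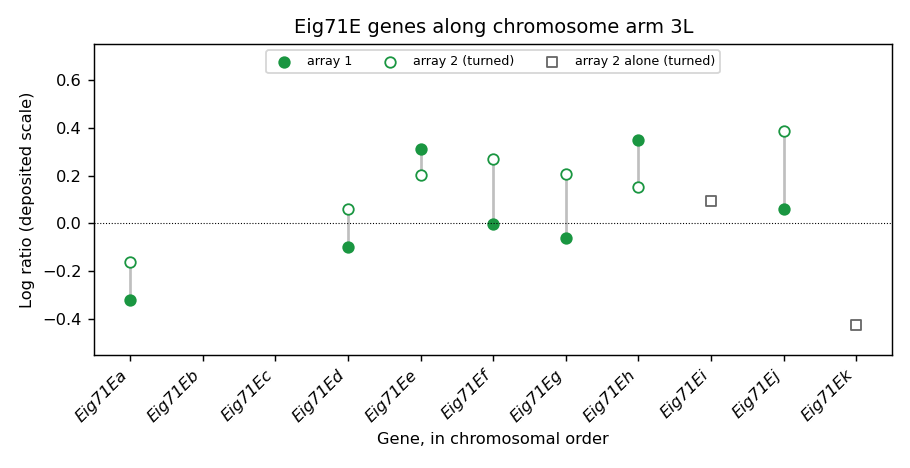
Log ratios (y axis, deposited scale, array 2 turned) of the Eig71E genes in their order on chromosome arm 3L (x axis), with filled points for array 1, open points for array 2 and squares for genes measured on array 2 alone. Eig71Ea is negative on both arrays and Eig71Ee, Eig71Eh and Eig71Ej are positive on both; Eig71Eb and Eig71Ec have no value.

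A wider list of 67 further genes of hormone synthesis, transport, signalling, juvenile hormone and hormone-regulated targets had 45 measured on both arrays, of which limma called 0 at adjusted p under 0.05. Of the 45, 15 were positive on both arrays (33.3%, beside 25.4% of all genes), 15 negative on both (beside 23.5%) and 15 on opposite sides (beside 51.1%), and the median was -0.0015. At an unadjusted p under 0.05, 5 passed on the positive side (kni, Atet, Kr-h1, Ddc and the glue gene Sgs1, the last named after its values were seen) and 0 on the negative. The 5 are 11.1% of the 45, beside 4.72% of all genes on the positive side and 2.18% on the negative. Among regulators of synthesis, the transcription factor gene kni was highest (0.197 on array 1 and 0.495 on array 2) and the sterol transport gene Npc2a lowest (-0.276 and -0.113). Of transport and inactivation genes, the ABC transporter gene Atet was highest with widely differing arrays (0.723 and 0.093), and the ecdysone importer gene EcI (Oatp74D in the current annotation) lowest (0.03 and -0.23). The median of the 4 measured genes of this kind had opposite signs on the arrays, 0.244 and -0.0835.

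Only 2 of 6 genes of Ptth signalling were measured, tsl, known from activation of tor in the embryo (mean -0.037), and the MEK gene Dsor1 (mean -0.0625). Of 7 receptors and cofactors, rig, a cofactor-like WD40 protein gene, was highest at 0.261 and 0.197, and E(bx), a chromatin remodelling subunit gene, was lowest at -0.089 and -0.185. The juvenile hormone list, whose hormone opposes metamorphosis, had 4 of 6 measured genes positive on both arrays, beside 25.4% of all genes. Its highest gene was Kr-h1, the juvenile hormone response factor, with 0.40 and 0.344 and an adjusted p from limma of 0.413. Its 2 hormone receptor genes were also positive on both, with 0.094 and 0.203 for Met and 0.20 and 0.251 for gce. Jheh2, a juvenile hormone epoxide hydrolase gene, was lowest, at -0.155 and -0.033.

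Of 16 measured hormone-regulated targets, 6 were on the positive side of both arrays and 8 on the negative. Ddc, the dopa decarboxylase of cuticle tanning, was highest at 0.512 and 0.466, with an adjusted p from limma of 0.326. The glue gene Sgs4 was lowest at -0.237 and -0.172. The 10 salivary gland markers share the tissue of the Eig71E genes, and all but Sgs5bis are also counted among the 16 targets. They split evenly, with 5 on the positive and 5 on the negative side of both arrays and a median of -0.0187. All 10 thus lay on the same side on both arrays, beside 48.9% of all genes. Sgs3, Sgs4, Sgs5, Sgs7 and Sgs8 were the negative ones, and Sgs1, Sgs5bis, ng1, ng2 and ng3 the positive ones. Of the 7 Eig71E genes measured on both arrays, 3 lay on opposite sides.

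The medians of midgut, muscle, epidermal, fat body and eye disc markers lay further from 0 than the 0.0765 of the ecdysone genes. Midgut markers were negative on both arrays for 7 of 8 genes (median -0.65), muscle markers positive on both for 4 of 4 (median 0.348), and epidermal markers positive on both for 2 of 3 (median 0.569). Fat body markers were negative on both for 3 of 4 (median -0.0892), and eye disc markers for 4 of 4 (median -0.114). These counts cover 3 of 8 listed epidermal, 4 of 7 fat body, 4 of 6 eye disc and 4 of 6 muscle markers, since the others had no value on both arrays. Of all genes, 25.4% were positive on both and 23.5% negative on both. At an unadjusted limma p under 0.05, 7 of 8 midgut and 1 of 4 fat body markers passed on the negative side, 3 of 4 muscle and 2 of 3 epidermal markers on the positive side, and 0 of 4 eye disc markers on either. None of these genes passed the limma test over all genes, where the lowest adjusted p was 0.308. Their part in the values of the ecdysone genes was not tested.

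These sides hold only if the deposited ratios follow the dyes. If the ratios instead follow genotype on both arrays, usp (0.204 and 0.167), Hr39 (0.176 and 0.19), Hr3 (0.173 and 0.0565), Eip78C (0.16 and 0.039), shd (0.205 and 0.052), ftz-f1 (0.40 and 0.008), phm (0.06 and 0.181) and Eip55E (0.063 and 0.095) were the 8 members positive on both arrays. All genes were then positive on both in 24.8% of cases. EcR had 0.588 and -0.172 under that reading, Eig71Ee 0.309 and -0.204, and ImpL1 0.198 and -0.246, each on opposite sides. Ptth, Eig71Ed, Eig71Ef and Eig71Eg were the 4 negative on both, beside 25.8% of all genes. Turning array 2 is all that separates the readings, so a member on 1 side of both arrays under one must lie on opposite sides under the other. With limma 0 of the 27 members passed at an unadjusted p under 0.05 under that reading, beside 4.08% of all genes. The lowest adjusted p of a member from limma was 0.98. The arrays correlated at r = 0.0635 across the 9266 genes after turning and at r = 0.229 across the 27 members, descriptions across genes of the same 2 arrays, which are not independent replicates.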

How the data were processed

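The deposited table, handled as scores because a code of -10000 lies outside any log range, holds 1 log ratio per probe and array. The scanner, background correction, normalization, blank filter, log base and numerator are named by no source used here. Blank cells (3996 on array 1, 1450 on array 2) and 7 coded cells were treated as missing, and 0 columns were left unused. The platform annotation gave 13147 probes 1 symbol, 99 several and 2498 none. Symbols of 12519 probes, changed or not, were taken through gene identifiers from the Release 6 plus ISO1 MT table, which also gave gene order. Unnamed features at 40 places repeated in each of 24 blocks, 960 in all, were left out, which left 10912 probes on both arrays.

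Array 2 was multiplied by -1, each array was centred on its median, and probes of a gene were averaged. Genes were tested against 0 with limma 3.58.1 in R 4.3.3 (lmFit, eBayes, two-sided, Benjamini-Hochberg adjusted p under 0.05), with 1 residual degree of freedom. The eBayes step added 5.09 prior degrees of freedom from the spread of all genes. The script was tested on simulated data. The 2 arrays limit the precision. All members were named, and of each further pathway list the highest and lowest gene and any past the threshold. Tissue marker lists were only counted, except that the salivary gland markers were named by side after their values were seen. Members and lists were chosen with earlier results of these data known. Alternatives covered direction, centring, repeated features, spot order, probes on 1 array, probe medians, robust eBayes, log base and leaving out an array.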

Additional observations from a re-analysis of the deposited data

How the results depend on the processing

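With limma, 0 members passed an adjusted p under 0.05 under each of the 6 alternatives run on them, and the lowest adjusted p of a member lay between 0.395 and 0.98. Over all probes 0 were called under each alternative, and over all genes 1 (CG6271) was called without centring. At an unadjusted limma p under 0.05, 4 members passed without centring and 4 with the running median over probe order subtracted. In both cases these were EcR, Eig71Ee, Eig71Ea and Eig71Eh. Of all genes, 7.78% and 8.49% passed under these settings, beside 6.9% in the main fit. With repeated features kept, 3 members passed (EcR, Eig71Ee and Eig71Eh), beside 7.9% of all genes. With the values read as running by genotype 0 members passed, beside 4.08% of all genes. Member means kept their sign without centring in 27 of 27 genes and with the running median subtracted in 24, where Eig71Ed, Hr39 and Ptth changed. With the values read by genotype 15 kept their sign. Leaving out an array gives values with no test: 15 to 19 members were then positive and 8 to 12 negative, and the median of member means lay between 0.0575 (array 2 alone) and 0.123 (array 1 alone). On base 10, 2 members (Eig71Ee and ImpL1) were at least 1.5-fold from the median on both arrays, against 0 on base 2. The cause of these changes was not tested. Each log ratio already pairs dASF/SF2 with control RNA on 1 array, and no further block could be fitted to 2 arrays. The 2 arrays with 1 residual degree of freedom limit what the test can show.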
